A study of Mus musculus with 41 samples.

Results

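Of 41 bulk RNA-seq libraries of mouse endometriosis lesions, 4 held transcripts of liver tissue at more than 1% of their counts for serum albumin, and these 4 lesions are described here. They were chosen by the share of library counts taken by albumin mRNA (Alb), which hepatocytes make in bulk and uterine tissue does not. Alb took 3.32% of the counts in C57Bl/6J IL-33 replicate 4, 1.61% in Nmur1iCre-eGFP Id2fl/fl IL-33 replicate 2, 3.50% in Nmur1iCre-eGFP IL-33 replicate 3 and 6.00% in C57Bl/6J 120k transfer replicate 3. The next highest library, Nmur1iCre-eGFP Id2fl/fl 250k transfer replicate 2, held 0.0317%, and the 11 other libraries of the same 4 groups held at most 0.00219%. Because Alb in these libraries made the choice, its values are a description, and Alb is left out of everything that follows.

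Endometriosis is the growth of uterine lining outside the uterus, and the study asked what group 2 innate lymphoid cells (ILC2s), activated by the alarmin interleukin-33 (IL-33), do in such lesions. A uterine punch of 4 mm had been glued to the inside of the peritoneal wall of mice aged 12 to 16 weeks, and from day 7 the mice were given 3 intraperitoneal injections of 1 µg IL-33 over 6 days. All 4 groups with a liver-holding lesion received IL-33. They were wild-type C57Bl/6J mice (n = 4), Nmur1iCre-eGFP mice (n = 4), which carry a Cre under the ILC2-associated Nmur1 gene and are ILC2-competent, Nmur1iCre-eGFP Id2fl/fl mice (n = 4), in which that Cre meets floxed alleles of Id2 and which form the ILC2-deficient genotype of the design, and C57Bl/6J mice given 120000 ILC2s on the day before IL-33 (n = 3). Each group therefore had 1 liver-holding lesion, set against the 11 other lesions of the same groups. A further 26 libraries of 7 other groups lay outside this comparison and served as a measure of gene levels in other lesions, of which 3 held traces of liver described below. They came from Id2fl/fl mice given IL-33 (n = 4), ILC2-competent controls with floxed Id2 and no Cre, and from Nmur1iCre-eGFP Id2fl/fl mice given PBS in place of IL-33 (n = 4), IL-33 and PBS (n = 4), or IL-33 after 120000 (n = 2) or 250000 (n = 4) ILC2s. The last pair of groups, given IL-33, were Nmur1iCre-eGFP fragments grown in Nmur1iCre-eGFP Id2fl/fl recipients (n = 4) and the reverse (n = 4). The labels do not say that replicates came from separate mice, and the p-values therefore reflect variation among libraries, some of which may be technical. Library totals ran from 30.3 to 58.5 mega-counts in the liver-holding lesions, from 31.8 to 48.0 mega-counts in the 11 others, and from 28.9 to 70.5 mega-counts in the 26 outside.

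The liver is built mainly of hepatocytes, which secrete most plasma proteins (albumin, lipoproteins, clotting factors, complement), make bile acids and urea, and clear foreign compounds with cytochrome P450 enzymes. Kupffer cells are its macrophages, its sinusoids are lined by a specialised endothelium, stellate cells store vitamin A, and bile duct epithelium drains bile. Under cytokines such as interleukin-6, hepatocytes shift to an acute-phase output of serum amyloid A and other proteins and lower several metabolic enzymes. The liver lies in the peritoneal cavity, the same cavity in which these lesions grew.

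The 3 further label markers were abundant in each of the 4 libraries and nearly absent elsewhere. Values are CPM, read counts scaled to library size with the TMM factors of all 41 libraries, and the 4 libraries are given in the order C57Bl/6J IL-33, Nmur1iCre-eGFP Id2fl/fl IL-33, Nmur1iCre-eGFP IL-33, C57Bl/6J 120k transfer. Apoa1 (GRCm38 chr9:46228580-46230466, plus strand), the main protein of high-density lipoprotein, stood at 2860, 775, 2620 and 5160 CPM in the liver-holding lesions, against a range of 0 to 0.991 CPM in the 11 others with a median of 0.0434. Fga (chr3:83026076-83033627, plus strand), the fibrinogen alpha chain, stood at 4920, 1080, 3240 and 10300 CPM in the liver-holding lesions, against 0 to 2.54 CPM in the others. Ttr, the carrier transthyretin, stood at 1320, 807, 1930 and 3550 CPM in the liver-holding lesions, against 0 to 1.12 CPM in the others. All 4 libraries lay above all 11 for each marker, the lesion of Nmur1iCre-eGFP Id2fl/fl mice was lowest and the lesion of the transfer group highest, and the label of liver tissue fits its markers.

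**Figure D1:**
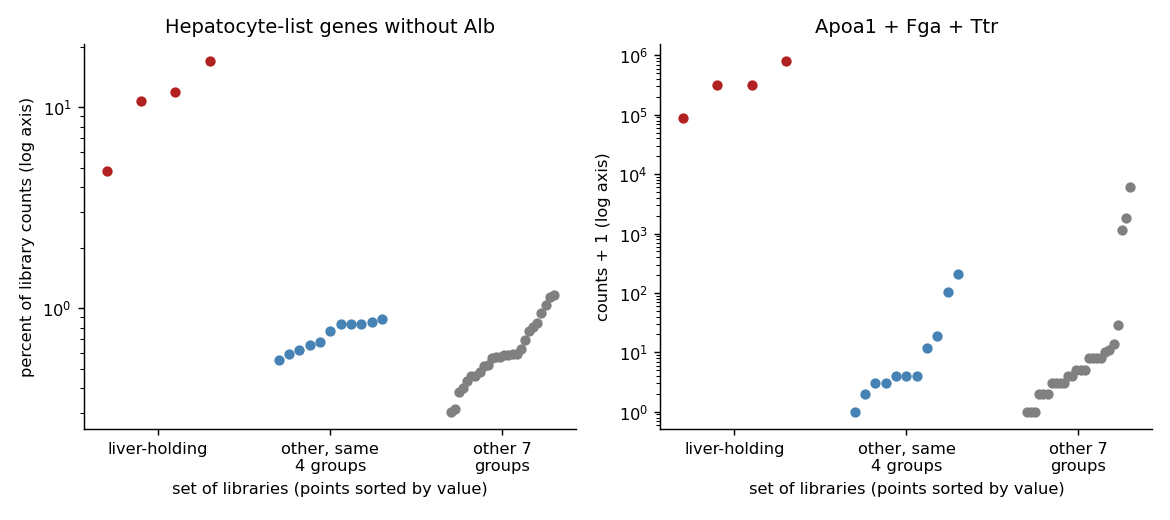
Share of library counts taken by 162 hepatocyte-list genes without Alb (left, percent, log axis) and the summed counts plus 1 of Apoa1, Fga and Ttr (right, log axis), 1 point per library, for the 4 liver-holding lesions, the 11 others of the same groups and the 26 of the other 7 groups. The liver-holding lesions sit at 4.79 to 16.9%, above every other library, and 3 libraries of the other groups stand above the rest for the summed markers.

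Across 13 hepatocyte lists with 162 measured genes, the liver-holding lesions gave 11.9, 4.79, 10.7 and 16.9% of their counts to these genes, against 0.552 to 0.886% in the 11 others. Lists and members were chosen for being made by liver, so the counts that follow describe them and carry no test. Of all 21181 genes measured in the fit, 6.98% were higher in all 4 liver-holding lesions than in all 11 others.

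Secreted proteins took most of the share. All 15 carriers and lipoproteins lay above the 11 others in all 4 libraries, at 1.58 to 5.14% of counts in the liver-holding lesions against 0.0177 to 0.0544% in the others. Apob, the backbone of low-density lipoprotein, stood at 9920, 3780, 6790 and 14600 CPM in the liver-holding lesions, against at most 5.35 CPM in the others. Hpx, which binds free haem, stood at 7030, 1120, 5170 and 12700 CPM in the liver-holding lesions, against at most 3.08 CPM in the others. Trf, the iron carrier transferrin, also has a level of its own in lesions, at 3870 to 14400 CPM in the liver-holding lesions against 155 to 524 CPM in the others.

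Of 18 clotting genes 16 lay above all 11 others. Fgb, the fibrinogen beta chain, stood at 3370, 743, 2300 and 6830 CPM in the liver-holding lesions, against at most 1.48 CPM in the others, and Fgg, the gamma chain, at 710 to 5300 CPM against at most 1.56 CPM. Of 15 complement genes 13 lay above all 11 others, but this list is made in lesions too, and its share differed least, at 1.05 to 3.68% in the liver-holding lesions against 0.302 to 0.669% in the others. C3, the central complement component, stood at 22300, 7310, 22700 and 39500 CPM in the liver-holding lesions, against 2950 to 5040 CPM in the others.

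Metabolic lists showed the same separation at lower levels. All 11 bile acid genes, 15 of 16 urea and amino acid genes, all 14 cytochrome and detoxification genes and 14 of 15 glucose and lipid genes lay above all 11 others. Cps1, which starts the urea cycle, stood at 2720, 916, 1120 and 2860 CPM in the liver-holding lesions, against at most 0.903 CPM in the others. Slco1b2, a hepatocyte uptake transporter, stood at 448, 247, 389 and 993 CPM in the liver-holding lesions, against at most 0.463 CPM in the others. Ces1c, a plasma carboxylesterase, stood at 2360, 750, 2810 and 5240 CPM in the liver-holding lesions, against at most 1.54 CPM in the others. Hnf4a, a hepatocyte transcription factor, stood at 392, 166, 360 and 717 CPM in the liver-holding lesions, against at most 0.573 CPM in the others, and 10 of 11 hepatocyte transcription factors separated in this way. Members of gene families with near-identical relatives, such as the Cyp2 and Cyp3a genes, Saa1 and Saa2, Serpina1e and Mup20, are uncertain as single genes because reads can be shared among relatives.

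Both zones of the liver lobule were represented. Near the portal vein, Hal, which degrades histidine, stood at 248, 69.4, 137 and 256 CPM in the liver-holding lesions, against at most 3.05 CPM in the others, and 6 of 7 periportal genes lay above all 11 others. Near the central vein, Cyp2e1, which oxidises ethanol, stood at 4190, 906, 3280 and 5380 CPM in the liver-holding lesions, against 0.109 to 31.6 CPM in the others, and 7 of 9 pericentral genes did the same. Glul, the pericentral glutamine synthetase, is widely expressed, and its 421 to 713 CPM in the liver-holding lesions overlapped the 198 to 757 CPM of the others.

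Genes with higher expression in female than male mouse liver were all present. All 11 lay above all 11 others, among them Cyp2b9 at 207, 99.6, 212 and 204 CPM in the liver-holding lesions against at most 0.198 CPM in the others. Of the male-biased list, 5 of 9 members were measured and the other 4 were not analysed here, with 3 of the 5 above all 11 others. Mup20, a urinary pheromone protein of males, stood at 12.0 to 45.5 CPM in the liver-holding lesions, against at most 0.044 CPM in the others.

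**Figure D2:**
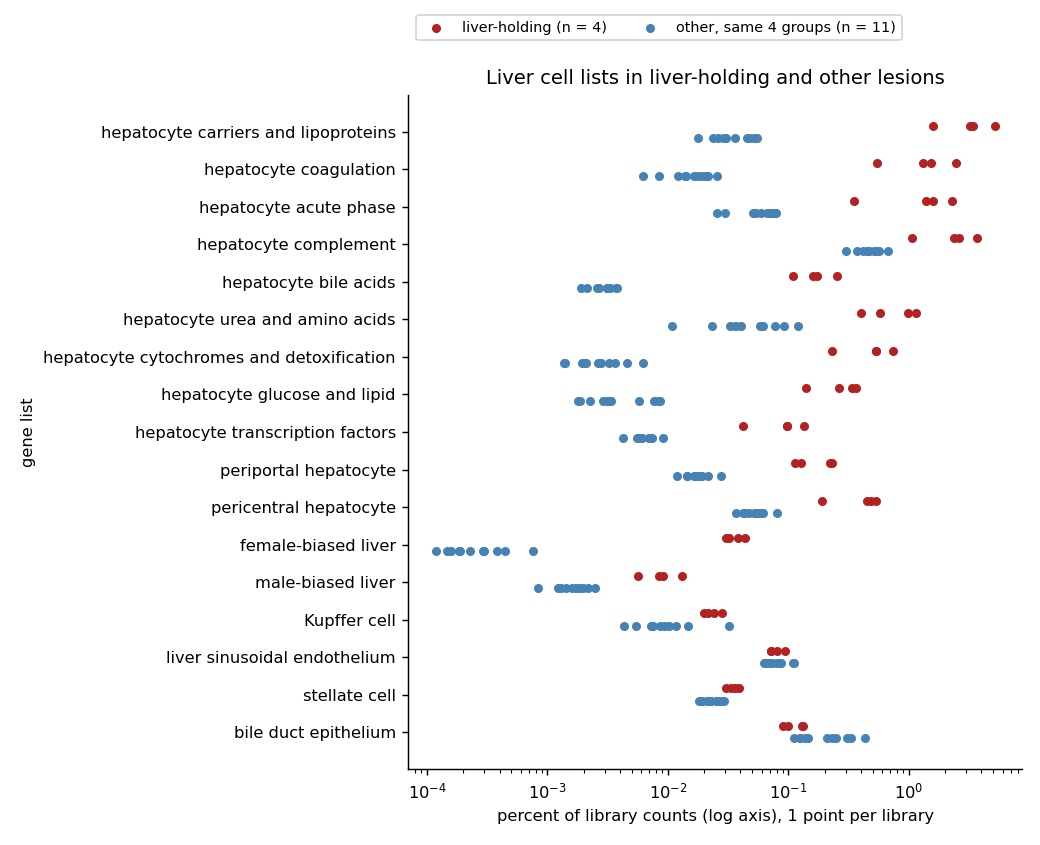
Percent of library counts (log axis) taken by each of 13 hepatocyte and 4 other liver cell lists, with the 4 liver-holding lesions drawn above the 11 others of the same groups, 1 point per library. The 13 hepatocyte lists separate without overlap, the Kupffer and sinusoidal lists overlap as sums, and the bile duct list is not higher in the liver-holding lesions.

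Some markers of liver cells other than hepatocytes were higher as well. Clec4f, a lectin of Kupffer cells that other macrophages lack, stood at 41.3, 23.4, 51.6 and 99.4 CPM in the liver-holding lesions, against at most 0.0881 CPM in the others. Together with Cd5l, Vsig4, Marco and Timd4 it made 5 of 7 Kupffer genes that lay above all 11 others. In the 26 outside libraries Clec4f reached 1.66, Vsig4 3.24 and Cd5l 20.1 CPM, below every liver-holding lesion. Marco reached 17.6 and Timd4 2.56 CPM there, against 2.11 to 3.52 and 1.18 to 3.43 CPM in the liver-holding lesions, so these genes are not particular to them. Stab2, a scavenger receptor of sinusoidal endothelium, stood at 56.3 to 227 CPM in the liver-holding lesions, against 1.54 to 10.4 CPM in the others. Clec4g, Dnase1l3, F8, Gpr182 and Oit3 of the same list also separated, while Stab1, shared with lesion macrophages, averaged 451 CPM in the others and did not. Dnase1l3 reached 41 CPM in the outside libraries, within its 15.3 to 53.3 CPM in the liver-holding lesions. For stellate cells, Lrat, which makes the retinyl esters they store, stood at 18.2 CPM or above with a median of 28.6 CPM in the liver-holding lesions, against 0.15 to 15.9 CPM in the others, and 4 of 7 members lay above all 11. The bile duct list behaved otherwise. Pkhd1, of bile duct cilia, separated at 25.5 to 67.0 CPM in the liver-holding lesions against 2.31 to 23.2 CPM in the others, but Krt19, a keratin shared by bile ducts and endometrial glands, stood at 9.80 to 65.6 CPM against 7.17 to 398 CPM.

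Transcripts of a second abdominal organ were found in the lesion of the transfer group. In C57Bl/6J 120k transfer replicate 3 the 8 genes of the exocrine pancreas list summed to 36032 counts (616 CPM of the library total), against 144, 149 and 198 counts in the other 3 liver-holding lesions. Ctrb1, a chymotrypsinogen, stood at 348 CPM there and Cela2a, an elastase, at 86.6 CPM. A lower pancreas signal of 1326 counts (29.1 CPM) lay in C57Bl/6J IL-33 replicate 3, which held 0 counts of Apoa1, Fga and Ttr, and the other 39 libraries of the series held 57 to 310 counts. Of the intestine list, Apoa4, which mouse liver also makes, stood at 47.6 to 251 CPM in the liver-holding lesions against at most 0.133 CPM in the others.

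Within the hepatocyte output, the 4 lesions resembled each other in most genes and differed in a few. Scaled to 1000 counts of all hepatocyte lists, the 88 genes with little expression outside liver differed between the highest and lowest of the 4 libraries by a median ratio of 1.96, with 46 of them under 2 and 12 over 5. Cyp2a4 differed most, by a ratio of 31.3, with 0.0318 per 1000 in C57Bl/6J IL-33 replicate 4 and 0.998 per 1000 in Nmur1iCre-eGFP Id2fl/fl IL-33 replicate 2. Cyp8b1, which sets the type of bile acid, differed by a ratio of 16, with its highest value in C57Bl/6J IL-33 replicate 4. Hnf4a differed by a ratio of 1.36 and Fbp1, of glucose synthesis, by 1.10. The liver-holding lesion of Nmur1iCre-eGFP Id2fl/fl mice was at an end of the range for most of the 12, lowest for Saa1, Saa2 and Cyp4a14 and highest for genes that include Cyp2a4, Nr0b2, Igfbp1, Cyp3a41a, Tat and Sds.

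When libraries with traces of liver were added, Saa1, Saa2, Cyp2a4 and Cyp3a41a of these genes also separated. Cyp2a4 and Cyp3a41a did so on very few counts in the trace libraries. Cyp4a14, Nr0b2, Igfbp1, Tat and Sds overlapped. A total of 8 libraries held at least 1000 Alb counts, the 4 above and 4 with traces, and they were set apart by whether the recipient had ILC2s by its labels. Recipients of the deficient genotype given no ILC2s had 3 of them, Nmur1iCre-eGFP Id2fl/fl IL-33 replicate 2 and replicates 2 and 4 of Nmur1iCre-eGFP fragments grown in deficient recipients. Competent recipients or recipients given ILC2s had 5, the other 3 liver-holding lesions, C57Bl/6J 120k transfer replicate 1 and Nmur1iCre-eGFP Id2fl/fl 250k transfer replicate 2. The last is placed by its label alone. A list of 16 type 2 response genes took 0.108% of its counts, against 0.0864 to 0.0993% in the 3 without ILC2s and 0.211 to 0.291% in the rest of the 5. This split was made after the values had been seen, so it is a description with no test, and 1 group has a single liver-holding library.

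Per 1000 counts of Apoa1, Fga and Ttr together, Saa1, an acute-phase apolipoprotein on chromosome 7, gave 21.9, 18.6 and 24.9 in the 3 libraries from deficient recipients without ILC2s. In the 5 others it gave 103, 81.8, 88.5, 213 and 125, with no overlap. Its neighbour Saa2 gave 17.2, 19.5 and 16.0 in the 3 libraries without ILC2s, against 96.3 to 125 in the 5 with them. Apcs, the pentraxin serum amyloid P, gave 7.98 to 12.9 in the 3 without ILC2s, against 28.0 to 49.0 in the 5 with them. The other 3 acute-phase genes restricted to liver overlapped, with the hormone Hamp at 39.9 to 58.6 without ILC2s against 11.1 to 50.9 with them. Among all 76 hepatocyte genes restricted to liver (median under 0.1 CPM in the 33 libraries with fewer than 1000 Alb counts), 15 did not overlap (19.7%). Of these 4 were lower without ILC2s (5.26%), the 3 named and Fgb, and 11 were higher without ILC2s (14.5%). The 11 include Cyp2c29, at 54.8 to 117 in the 3 without ILC2s against 9.66 to 47.9 in the 5 with them, Cyp3a11, at 69.7 to 111 against 27.7 to 62.8, and the bile salt pump Abcb11, at 59.4 to 73.6 against 11.4 to 50.2. The remaining members are Apoc3, Cyp1a2, Cyp2a4, Cyp2b13, Cyp3a41a, Fabp1, Mbl2 and Otc. Some gaps were narrow, with Cyp1a2 at 19.3 or more without ILC2s against 19 or less with them. The mix of the 3 scaling markers differed too. Fga and Ttr gave 35388 and 26338 counts in Nmur1iCre-eGFP Id2fl/fl IL-33 replicate 2, against 170814 and 45899 in C57Bl/6J IL-33 replicate 4. How far that mix moved these ratios was not tested. Trace libraries rest on few counts, with Saa1 at 21, 45, 44 and 772 counts in the 4 of them, and where the traces came from was not tested. C57Bl/6J 120k transfer replicate 1 held 207 counts of Apoa1, Fga and Ttr together. Cyp2b13, at 1 count there, gave 4.83 per 1000, and Cyp3a41a and Fabp1 gave 0. Cyp2a4 also gave 4.83 there, against 5.32 or more without ILC2s, so such separations hang on very few counts.

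Saa1 and Saa2 separated in the same way and lie head to head as near-copies, and their promoter windows are printed to show how alike they are. The windows run 250 bases before to 50 after the gene start (RefSeq, GRCm38.p6), at chr7:46742931-46743230 on the minus strand for Saa1 and chr7:46751583-46751882 on the plus strand for Saa2. Aligned end to end, 287 of 300 bases matched (95.7%), with 12 substitutions and 1 unpaired base in each window, and capitals mark the bases that did not match. No motif was searched.
Saa1: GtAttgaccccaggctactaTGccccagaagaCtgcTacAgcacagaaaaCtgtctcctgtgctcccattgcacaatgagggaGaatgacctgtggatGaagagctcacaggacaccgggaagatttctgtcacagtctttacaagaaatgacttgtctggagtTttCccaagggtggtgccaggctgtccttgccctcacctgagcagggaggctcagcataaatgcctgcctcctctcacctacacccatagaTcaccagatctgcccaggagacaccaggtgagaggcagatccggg
Saa2: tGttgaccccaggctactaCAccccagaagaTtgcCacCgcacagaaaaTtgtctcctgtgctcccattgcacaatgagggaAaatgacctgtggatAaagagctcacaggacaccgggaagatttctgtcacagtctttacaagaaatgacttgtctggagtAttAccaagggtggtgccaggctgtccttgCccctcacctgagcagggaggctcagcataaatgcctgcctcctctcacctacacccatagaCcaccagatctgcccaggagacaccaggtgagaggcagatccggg

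**Figure D3:**
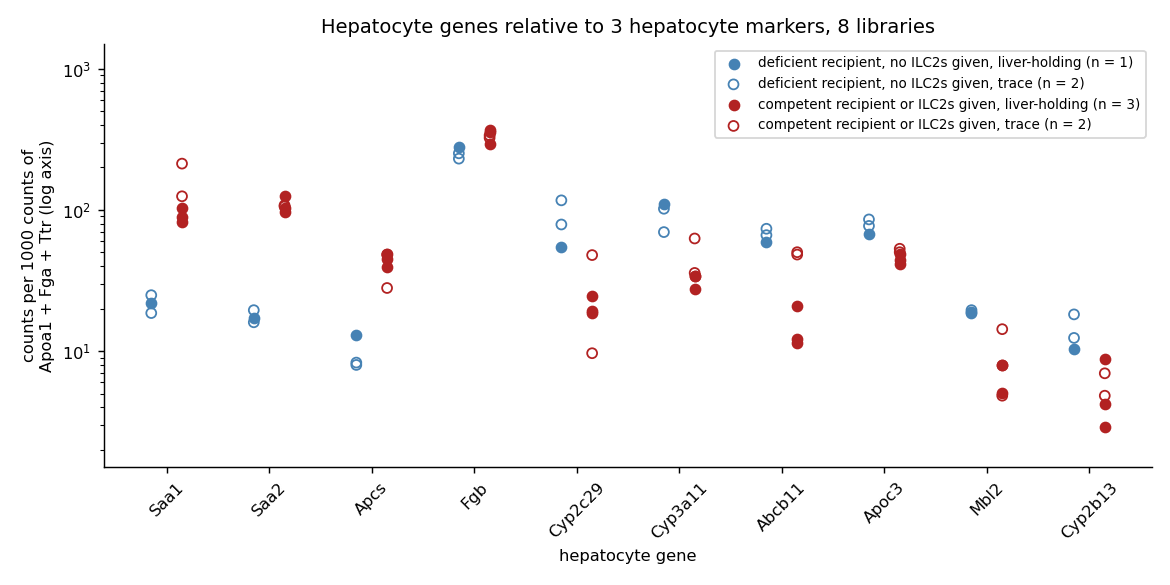
Counts of 10 hepatocyte genes per 1000 counts of Apoa1, Fga and Ttr (log axis) in 8 libraries with at least 1000 Alb counts. Libraries from ILC2-deficient recipients given no ILC2s (left of each pair, n = 3) lie below the 5 others for Saa1, Saa2, Apcs and Fgb and above them for the other 6 genes, which were picked among those without overlap. Open points are trace libraries, which rest on few counts.

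To ask what differed in the rest of the lesion, all genes were fitted with edgeR's quasi-likelihood test, with group as a covariate and Benjamini-Hochberg adjusted p under 0.05. Of 21181 genes 5107 passed (24.1%), 3119 higher (14.7%) and 1988 lower (9.39%) in the liver-holding lesions. The 185 genes under 0.1 CPM in the 26 outside libraries were all higher, a direction fixed by the choice of libraries, since such genes passed the filter on low counts only through the liver-holding ones. The next counts concern 10478 lesion-expressed genes, those with at least 10 CPM on average in the 26 outside libraries and on no liver list. Of these 2980 passed (28.4%), 1542 higher (14.7%) and 1438 lower (13.7%). Genes outside this set are also named below with the lists, the Hox clusters and the panel. Among those given an adjusted p, Il13 and Il17rb averaged under 10 CPM in the outside libraries, and Arg1 and Krt19 are on a liver list. Changes of at least 2-fold made up 28.7% of the higher calls (443 genes) and 7.79% of the lower calls. Without C57Bl/6J 120k transfer replicate 3, the library with most liver, 1626 passed, and without C57Bl/6J IL-33 replicate 4 1982 passed. In bulk lesions, fewer cells of a type, less RNA per cell and a share of counts taken by liver RNA cannot be told apart. Hepatocyte-list genes alone took 4.79 to 16.9% of counts in the liver-holding lesions. Scaling without liver-list genes gave 3044 lesion-expressed calls, but how far liver RNA lowered the levels of lesion genes was not tested.

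**Figure D4:**
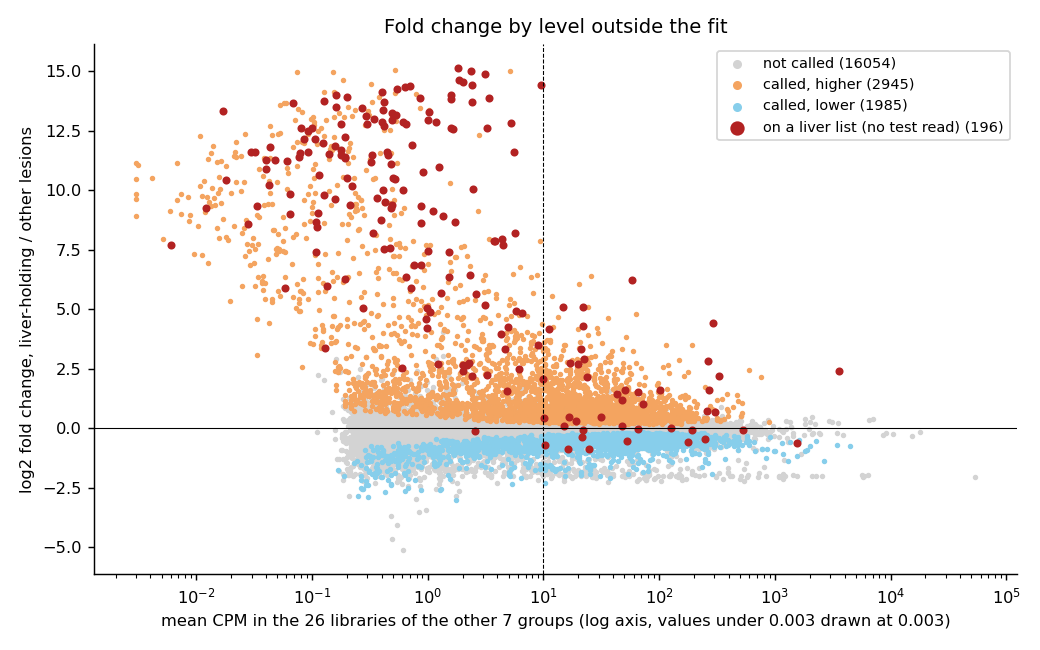
Log2 fold change of liver-holding over other lesions, from edgeR, by mean CPM in the 26 libraries outside the fit (log axis), 1 point per gene without Alb. Liver-list genes in red reach past 10 on the log2 scale at low outside levels, and right of the dashed line at 10 CPM the called genes lie mostly within 2-fold of no change.

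The most raised lesion-expressed genes were genes that mouse liver also makes. By the rule for named genes the 10 with the largest increase, each above every other library of its group in 4 of 4 groups as 9.91% of all genes were, were Adh1, Serpina1e, Cdo1, Slc38a3, Pigr, Prlr, Lrg1, Stard10, Slc38a4 and Sord. Adh1, an alcohol dehydrogenase, stood at 545, 486, 1150 and 2000 CPM in the liver-holding lesions, against 4.82 to 114 CPM in the others. Pigr, which carries polymeric antibodies across epithelia and into bile, stood at 1350, 392, 1450 and 2730 CPM in the liver-holding lesions, against 3.23 to 299 CPM in the others. Prlr, the prolactin receptor, stood at 129 to 504 CPM in the liver-holding lesions against 4.51 to 24.6 CPM in the others. All 10 lay above all 11 other libraries, and since the libraries were chosen by a hepatocyte transcript these values are a description.

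The largest decreases by the same rule, below every other library of the group in 4 of 4 groups as 6.28% of all genes were, included 3 genes of the Hoxc cluster on chromosome 15, which encode transcription factors of body position. Hoxc6 (chr15:102998257-103011881, plus strand) stood at 9.66, 10.4, 6.69 and 5.12 CPM in the liver-holding lesions, against 12.1 to 25.5 CPM in the others. It fell by 1.29 ± 0.22 on the log2 scale (SE, n = 4 and 11, edgeR adjusted p = 0.000769). Hoxc5 stood at 3.37, 4.60, 2.31 and 1.79 CPM in the liver-holding lesions, against 4.80 to 11.9 CPM in the others, and fell by 1.54 ± 0.25 (edgeR adjusted p = 0.000634). Hoxc8 stood at 3.17, 3.03, 3.68 and 2.01 CPM in the liver-holding lesions, against 5.39 to 13.1 CPM in the others, and fell by 1.53 ± 0.25 (edgeR adjusted p = 0.000657). None of the 4 libraries overlapped the 11 for these 3 genes, a separation that 1.28% of all tested genes showed in this direction. The annotated span of Hoxc5 covers Hoxc6, Hoxc8 and Hoxc9, so reads of these neighbours may be shared or lost.

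The other Hox genes were gathered after that result had been seen. Of 31 measured Hox genes 14 were called lower, against 9.39% of all genes tested, namely 6 of 7 in Hoxc (median −1.53), 4 of 8 in Hoxb (median −0.63), 3 of 10 in Hoxa (median −0.42) and 1 of 6 in Hoxd (median −0.31). Hoxd8 stood at 11.1, 15.7, 7.88 and 7.03 CPM in the liver-holding lesions, against 15.8 to 30.5 CPM in the others, and fell by 1.05 ± 0.20 (edgeR adjusted p = 0.00199). Among the 14 called, Hoxa4, Hoxa6, Hoxa7, Hoxb7, Hoxb9, Hoxc4, Hoxc9 and Hoxc10 averaged under 10 CPM in the outside libraries and are not lesion-expressed genes by the rule. Genes of the adult uterus did not pass, and their groups differed in direction. Hoxa10, required for implantation, stood at 17.7, 45.6, 58.6 and 16.3 CPM in the liver-holding lesions against 11.8 to 46.3 CPM in the others, a log2 change of 0.02 ± 0.38 (edgeR adjusted p = 0.98). Within groups its log2 ratio was −1.07 in C57Bl/6J 120k transfer and −0.746 in C57Bl/6J IL-33 lesions, and 0.629 in Nmur1iCre-eGFP Id2fl/fl and 0.74 in Nmur1iCre-eGFP lesions, each from 1 liver-holding library. Hoxa11, Hoxd10 and Hoxd11 were likewise negative in both C57Bl/6J groups and positive in both Nmur1iCre-eGFP genotypes, a difference that was not tested. Hoxa11 changed by −0.03 ± 0.47 (edgeR adjusted p = 0.969) and Hoxd10 by 0.04 ± 0.41 (edgeR adjusted p = 0.952).

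**Figure D5:**
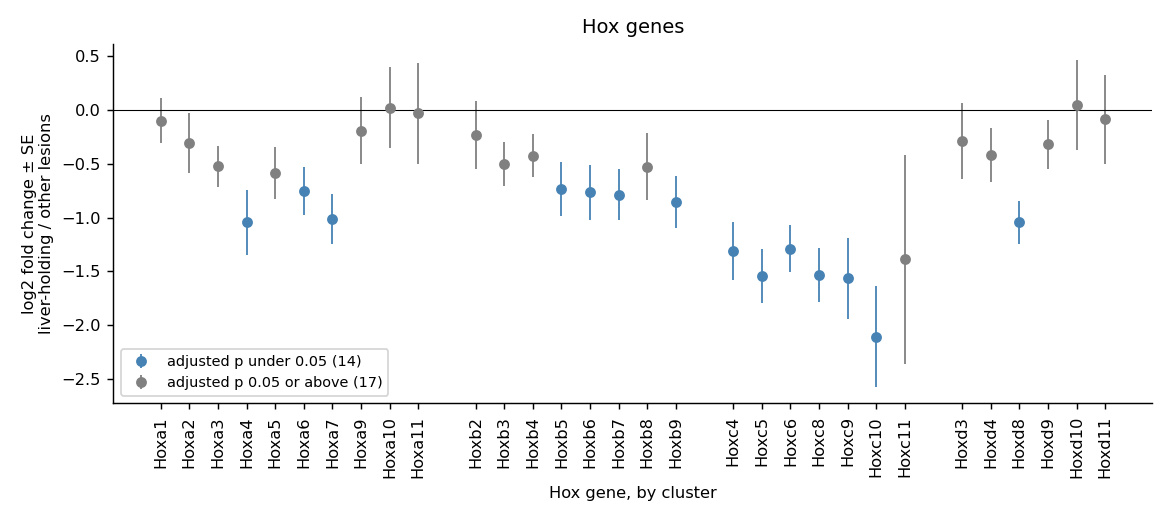
Log2 fold change with its standard error (edgeR, liver-holding over other lesions, n = 4 and 11) for 31 Hox genes ordered by cluster, with called genes in blue. The Hoxc genes lie lowest, 6 of 7 of them called, while Hoxa10, Hoxa11, Hoxd10 and Hoxd11 lie near 0 as averages of groups that differ in sign.

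Skeletal muscle, part of the body wall on which the lesions grew, moved with this result. The 15 muscle genes took 4.30, 2.21, 0.0129 and 1.64% of counts in the liver-holding lesions, against 1.46 to 12.8% in the 11 others, with a median log2 change of −2.0 against −0.05 over all genes. None of them passed the edgeR test, 7 were lower at an unadjusted p under 0.05, and DESeq2 called 8 lower. With muscle share added as a covariate, an alternative chosen after the data had been seen, 1539 lesion-expressed genes passed. Hoxc5, Hoxc6 and Hoxc8 stayed past the threshold with it, and over every alternative tried their adjusted p was at most 0.0236 for Hoxc5, 0.0278 for Hoxc6 and 0.0128 for Hoxc8. A pair of libraries outside the comparison with as little muscle as the liver-holding lesion of Nmur1iCre-eGFP mice (0.0114 and 0.0117%) held Hoxc6 at 17.3 and 13.6 CPM and Hoxc5 at 10.5 and 8.14 CPM, above all 4 liver-holding lesions. They held Hoxc8 at 6.17 and 3.69 CPM, the second of which equals the 3.68 CPM of that liver-holding lesion within rounding. With more muscle, Nmur1iCre-eGFP Id2fl/fl 250k transfer replicate 1 (2.78%) held Hoxc6 at 29.8 CPM. Replicate 3 of Nmur1iCre-eGFP fragments in deficient recipients (2.93%) held Hoxc6, Hoxc5 and Hoxc8 at 11.1, 4.75 and 3.87 CPM, just above the liver-holding lesions. Replicate 1 of that group, with most muscle (16.5%), held Hoxc6 at 31 CPM. Why Hoxc levels differed was not tested. The other 7 of the 10 largest decreases, Cnksr1, Myl6b, Shisa2, Klhl30, Sh3rf2, Lrrn1 and Cryab, each lost its call in at least 3 alternatives. Cryab, a chaperone abundant in muscle, stood at 67.5, 46.4, 24.5 and 67.4 CPM in the liver-holding lesions against 46.9 to 254 CPM in the others and fell by 1.29 ± 0.38 (edgeR adjusted p = 0.0282), with an adjusted p of up to 0.441 over the alternatives.

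Some markers of lesion myeloid cells, fibroblasts and endothelium fell. Their counts stand beside the 13.7% of lesion-expressed genes, and the 20% of genes over 100 CPM in the outside libraries, that were lower, so they are no result about these lists. In the macrophage and monocyte list 3 of 14 were lower and 1 higher (median −0.31). Lyz2, the lysozyme of macrophages and neutrophils, stood at 1030, 1430, 1120 and 682 CPM in the liver-holding lesions, against 1260 to 2740 CPM in the others, and fell by 0.74 ± 0.14 (edgeR adjusted p = 0.00214). Itgam, the integrin CD11b, stood at 33.3, 28.6, 33.4 and 27.6 CPM in the liver-holding lesions, against 38.9 to 68.7 CPM in the others, and fell by 0.79 ± 0.14 (edgeR adjusted p = 0.00116). Cd68 also fell, by 0.65 ± 0.17 (edgeR adjusted p = 0.0158), while Apoe, which hepatocytes make as well, was higher at 1400 to 5530 CPM in the liver-holding lesions against 601 to 838 CPM in the others. Of the matrix and fibroblast list 3 of 14 were lower (median −0.30), Pdgfra by 0.56 ± 0.14 (edgeR adjusted p = 0.0107), the collagen cross-linker Lox by 0.54 ± 0.11 (edgeR adjusted p = 0.00408) and Dcn by 0.36 ± 0.12 (edgeR adjusted p = 0.0463). Pdgfra stood at 254, 260, 237 and 146 CPM in the liver-holding lesions, below the 273 to 415 CPM of all 11 others. Of the endothelium list Vwf and Flt1 were lower, 2 of 9, with Vwf down by 0.42 ± 0.09 (edgeR adjusted p = 0.00512).

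Further lists had 1 or 2 called members against the background of 14.7% higher and 9.39% lower. Smooth muscle Des was lower by 1.08 ± 0.36 (edgeR adjusted p = 0.047), and in the adipocyte list Lpl, which frees fatty acids from lipoproteins, fell by 0.88 ± 0.21 (edgeR adjusted p = 0.00878). Pck1 of the same list, which is also on a hepatocyte list as an enzyme of glucose synthesis, was higher at 658 to 2280 CPM in the liver-holding lesions, against 0.354 to 60.3 CPM in the others. Of the estrogen response list 2 of 8 were higher (median −0.22), Igf1, described below, and the cell cycle gene Ccnd1. Ccnd1 stood at 26.9, 79.5, 57.9 and 63.0 CPM in the liver-holding lesions, against 9.84 to 58.4 CPM in the others, and rose by 0.93 ± 0.19 (edgeR adjusted p = 0.00347). The stress factor Atf3 fell by 0.89 ± 0.16 (edgeR adjusted p = 0.00141) and Zfp36, which destabilises cytokine mRNAs, rose by 0.67 ± 0.15 (edgeR adjusted p = 0.00515). Of the neutrophil list Elane and Ly6g and of the blood list Alas2 were higher, all at under 10 CPM on average in the 11 others. The mesothelium, endometrial stroma, eosinophil, mast cell, B lineage, T cell, cytotoxic cell, interferon, proliferation and mitochondrial lists had no member past the edgeR threshold. At an unadjusted p under 0.05, 1 mesothelial gene was lower, 2 eosinophil genes and 1 B cell gene were higher and the rest had none. DESeq2 called 1 mesothelial gene lower and 1 B cell gene higher.

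Some epithelial genes were higher. In the endometrial epithelium list 4 of 12 were higher (median −0.14), against 14.7% of all genes, namely the keratins Krt8 and Krt18, the junction protein Cldn3 and the factor Foxa2, which is also on a hepatocyte list. Krt8, which hepatocytes pair with Krt18, stood at 56.1, 83.3, 121 and 171 CPM in the liver-holding lesions, against 3.84 to 220.0 CPM in the others. Its log2 rise was 2.09 ± 0.57 and that of Krt18 was 2.55 ± 0.47. Since the libraries were chosen by a hepatocyte transcript, both rises are a description. Cldn3 averaged 9.38 CPM in the outside libraries, under the lesion-expressed level, so its rise of 2.84 ± 0.60 is a description as well. Within groups its log2 ratio was 0.0317 in Nmur1iCre-eGFP Id2fl/fl IL-33 lesions and 2.76 to 3.74 in the other groups. Whether liver RNA carried this rise was not tested. Krt19, which hepatocytes lack, changed by −0.54 ± 0.61 (edgeR adjusted p = 0.555). Of the resident peritoneal macrophage list F5, Prg4 and Timd4 were higher, 3 of 7 (median 0.19), against the same 14.7%, and Timd4 is also on the Kupffer list. F5, clotting factor V, stood at 736, 256, 648 and 1130 CPM in the liver-holding lesions, against 3.12 to 26.3 CPM in the others, and is a hepatocyte product as well. Prg4, a lubricating glycoprotein also made in liver, stood at 15.5 to 116 CPM in the liver-holding lesions against 2.88 to 16.4 CPM in the others.

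In a panel of 20 genes tied to the study's question, 2 rose and 1 fell, against 14.7% and 9.39% of all genes. Igf1, a growth factor that liver secretes and estrogen raises in uterus, stood at 404, 677, 329 and 576 CPM in the liver-holding lesions, against 184 to 375 CPM in the others. Its log2 rise was 0.96 ± 0.12, and it stood at 139 to 618 CPM in the 26 outside libraries. Since liver makes Igf1 and the libraries were chosen by a hepatocyte transcript, this rise is a description. The other gene that rose was C3, described above. Il33 stood at 29.5, 29.6, 23.4 and 22.6 CPM in the liver-holding lesions, against 29.2 to 53.2 CPM in the others, and fell by 0.53 ± 0.14 (edgeR adjusted p = 0.0183), a call lost in 5 alternatives. Of the type 2 list of 16 genes 1, Ccl22, was lower by the edgeR test (median −0.49), 5 were lower at an unadjusted p under 0.05 and DESeq2 called 3 lower. Retnla stood at 436, 58.0, 389 and 393 CPM in the liver-holding lesions against 19.2 to 1070 CPM in the others, a change of −0.62 ± 0.37 (edgeR adjusted p = 0.248). Chil3, a chitinase-like lectin made by macrophages under type 2 cytokines, changed by −0.93 ± 0.39 (edgeR adjusted p = 0.102) and Il13 by −0.24 ± 0.30 (edgeR adjusted p = 0.706). Arg1, shared by these macrophages and the urea cycle of liver, changed by 0.71 ± 0.35 (edgeR adjusted p = 0.158). Chil3 passed in 2 alternatives and Retnla and Ccl11 in 1 each. Ccl22, a chemokine, fell by 0.93 ± 0.25 (edgeR adjusted p = 0.0161). In the ILC2 list Il7r was lower by 1.00 ± 0.27 (edgeR adjusted p = 0.0185) and Il17rb higher by 0.98 ± 0.26 (edgeR adjusted p = 0.0152). The steroid receptors Pgr and Esr1 did not pass, at −0.24 ± 0.39 (edgeR adjusted p = 0.697) and 0.03 ± 0.26 (edgeR adjusted p = 0.943).

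Comparisons between genotypes, each of which shares a group with another, were run with and without the liver-holding libraries. Whether fewer libraries or less liver changed the counts of calls was not tested. In edgeR fits over the whole series, Nmur1iCre-eGFP Id2fl/fl lesions against Nmur1iCre-eGFP lesions gave 813 calls (3.83% of 21249 genes) with the liver-holding libraries and 330 (1.55%) without them, where each group had 1 library fewer. Nmur1iCre-eGFP Id2fl/fl against lesions of Id2fl/fl mice given IL-33 gave 1817 calls (8.55%) with them and 1502 (7.07%) without. Nmur1iCre-eGFP against Id2fl/fl lesions gave 70 calls (0.329%) with them and 81 (0.381%) without. Of the 162 hepatocyte-list genes at most 2 were called in any of these fits, although their median log2 change was 8.38 with the liver-holding libraries in Nmur1iCre-eGFP against Id2fl/fl lesions and 0 without. C3 changed by 1.20 ± 0.65 in that comparison with the liver-holding libraries and by 0.19 ± 0.35 without (edgeR adjusted p = 0.396 and 0.856).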

How the data were processed

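Whole endometriosis lesions were profiled by bulk RNA-seq. The values are raw counts per gene as deposited by the authors, 21249 genes in 41 libraries. The submitters' processing notes name STAR, HTSeq, Trimmomatic, limma and edgeR with GRCm38. Their versions, the annotation and the strand setting are not given in the sources used here, so overlapping and antisense genes cannot be separated.

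Groups came from the sample titles. The members and gene lists (46) were chosen with earlier results of these data known. Counts of 15 libraries were fitted with edgeR 4.0.16 in R 4.3.3 (TMM factors from all 41 libraries, filterByExpr, which removed 68 genes, robust quasi-likelihood F-test, two-sided) on group and liver status. Standard errors were taken as the size of the log2 fold change over the root of F. Alternatives used DESeq2 1.42.0, other scalings, filters, covariates and leaving out each library. The comparisons of genotypes used 1 mean per group over all libraries, with and without the 4 liver-holding ones. The code was tested on simulated data. Gene positions are from GENCODE M21, promoter windows from RefSeq.

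The rule for named genes takes the label markers, the top 3 members of a liver list, the 10 largest increases and decreases seen in 4 of 4 groups among called lesion-expressed genes, called members of the lesion lists, and a fixed panel of 20. Not every member of a liver list or of the panel that the rule takes is printed. Other liver-list members, Hox genes and the genes split by ILC2 status were named after their values had been seen.

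Title replicate numbers were not used to pair samples in the main fit. The 21 same-numbered pairs correlated at a median of −0.133, with 8 above 0.1. The 63 differently numbered pairs had a median of 0.0903. Such correlations cannot exclude a pairing. In the 21 pairs within groups, no libraries agreed within counting error (chi-square over its degrees of freedom 46.2 to 1330). No batch or date is labelled. Counting error limits genes of few counts. Some items withheld for evaluation are not reported here.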

Additional observations from a re-analysis of the deposited data

Results flagged for a closer look

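Among 87 values checked in the 4 liver-holding lesions (shares of lists, label markers, the largest changes and the panel), 4 had a library far from the other 3. Chance gives such a gap in about 5% of groups of this size.

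The pancreas list took 0.0616% of counts in C57Bl/6J 120k transfer replicate 3, against 0.000348 to 0.000491% in the other 3 liver-holding lesions. The 1 measured gene of the kidney list, Kap, took 9.3e-05% of counts in Nmur1iCre-eGFP IL-33 replicate 3 (41 counts), against 0 to 1 count in the other 3. Lesions that were not liver-holding reached more, with 0.000646% in Nmur1iCre-eGFP Id2fl/fl IL-33 replicate 3 and 0.000361% in Nmur1iCre-eGFP IL-33 replicate 4. In Nmur1iCre-eGFP Id2fl/fl IL-33 replicate 2, Retnla stood at 58.0 CPM, against 389 to 436 CPM in the other 3, which came from ILC2-competent mice. In the same library the progesterone receptor Pgr stood at 381 CPM, against 48.2 to 85.8 CPM in the other 3.

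A liver signal lay in 3 libraries outside the comparison. Apoa1, Fga and Ttr together stood at 25.7 and 50.6 CPM of the library total in replicates 2 and 4 of Nmur1iCre-eGFP fragments grown in deficient recipients, and at 133 CPM in Nmur1iCre-eGFP Id2fl/fl 250k transfer replicate 2. The other 23 outside libraries held at most 0.968 CPM. The source of these traces was not tested.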

How the results depend on the processing

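The same 4 libraries held liver with an Alb threshold of 0.1%, and 3 of them at 2%. The count of all genes called (5107) and of lesion-expressed genes called (2980) stayed within 1.5 times with other size factors, scaling without liver genes, no filter, DESeq2 (6265 and 3689), all 41 libraries, no group covariate, Alb percent as a number and, for the second, a minimum of 1 CPM. With the replicate block it was 3028 and 1591, with 62% of lesion-expressed calls higher against 51.7%, and whether the numbers pair libraries is not labelled. With muscle share as a covariate it was 2924 and 1539. Leaving out each library in turn gave 3048 to 5801 and 1626 to 3463. The lowest counts came without C57Bl/6J 120k transfer replicate 3, and 1982 lesion-expressed genes passed without C57Bl/6J IL-33 replicate 4. Apart from the covariate and fewer samples, the cause was not tested.

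Of 37 named genes on no liver list, those that turned direction were not called in any setting where they did. Col6a5 was at −0.12 and Pgr at 0.11 with no group covariate. Acta2 and Esr1 were at −0.352 and −0.0624 with the replicate block, −0.142 and −0.0185 with Alb percent as a number (per percent), and −0.71 and −0.23 with muscle share, where Retnla was at 0.0152. Ccl24 was at 0.0214 with Alb percent as a number. Leaving out each library gave Acta2 from −0.60 to 0.54, Esr1 from −0.11 to 0.14, Il5 from −0.54 to 0.17, Ccl24 from −0.53 to 0.0315, Col6a5 from −0.18 to 0.44. For the 37 genes, 14 of the leave-one-out values turned direction, 22 lost a call, 3 gained one and 516 did neither, and over the other 9 alternatives 10 turned, 28 lost, 3 gained and 292 did neither.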
